A study of Mus musculus with 4 samples.

Results

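The genes described here encode the nuclear part of the mitochondrial respiratory chain, and were taken by name. They are the rows whose symbol begins with Nduf, Uqcr, Atp5 or with Cox and a digit, together with Sdha, Sdhb, Sdhc and Sdhd. This gave 97 of the 21883 features listed in each table, on 19 chromosomes. By textbook membership 41 belong to complex I, 4 to complex II, 8 to complex III, 27 to complex IV and 16 to complex V. The last, Cox4nb, shares a name with complex IV but encodes a subunit of a complex of the endoplasmic reticulum. The subunits encoded by mitochondrial DNA were not analysed here.

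RNA was sequenced from wild-type male mice of the BL6/C57 strain, young adults, in which the sciatic and femoral nerves of the left side had been transected 7 days before. The 4 groups were ipsilateral dorsal root ganglia (DRG) of lumbar levels 4 to 6, contralateral DRG of the same levels, ipsilateral lumbar dorsal spinal cord, and contralateral lumbar dorsal spinal cord. Each group is 1 library, so no difference below has a replicate check, and the sources used here do not say whether a library pools animals. The contralateral tissues came from operated mice and are not uninjured tissue. Levels are the authors' FPKM, which divides the fragments of a feature by its length and by the size of the library. A log2 ratio is log2 of (ipsilateral FPKM + 1) over (contralateral FPKM + 1), which understates differences of low genes, and a member is called measured in a tissue where at least 1 of its libraries held 1 FPKM or more.

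The respiratory chain sits in the inner mitochondrial membrane. Complex I (NADH dehydrogenase) and complex II (succinate dehydrogenase) pass electrons to ubiquinone, complex III (the cytochrome bc complex) passes them on to cytochrome c, and complex IV (cytochrome c oxidase) hands them to oxygen. Complexes I, III and IV pump protons, and complex V (ATP synthase) lets the protons flow back and makes ATP. Sensory neurons and the synapses of the dorsal horn depend heavily on this ATP, and many of the nuclear genes have start sites that carry motifs of the factors NRF1, GABP of the ETS family, and YY1.

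The start regions of the 3 members with the highest cord log2 ratios, Uqcr10, Atp5k and Atp5h, and of Atp5j2, which the authors' deposited table calls lower in ipsilateral cord, show these motifs and their absence. The sequences are from RefSeq on build GRCm38.p6, minus strand, from 250 bases before to 50 bases after the start site, at chr5:108434350-108434649 (Atp5k), chr11:115419870-115420169 (Atp5h), chr11:4704295-4704594 (Uqcr10) and chr5:145191492-145191791 (Atp5j2). Capitals mark a match, on either strand, to GCGCA and GCGC with 1 base between them (NRF1), CCGGAAG (ETS) or AAGATGGCG (YY1).
Atp5k: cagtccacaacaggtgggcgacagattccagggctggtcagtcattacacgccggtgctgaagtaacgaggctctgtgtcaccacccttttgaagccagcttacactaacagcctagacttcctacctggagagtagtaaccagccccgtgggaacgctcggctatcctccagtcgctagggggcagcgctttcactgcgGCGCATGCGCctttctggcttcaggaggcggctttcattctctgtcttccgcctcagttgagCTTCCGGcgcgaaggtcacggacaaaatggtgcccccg
Atp5h: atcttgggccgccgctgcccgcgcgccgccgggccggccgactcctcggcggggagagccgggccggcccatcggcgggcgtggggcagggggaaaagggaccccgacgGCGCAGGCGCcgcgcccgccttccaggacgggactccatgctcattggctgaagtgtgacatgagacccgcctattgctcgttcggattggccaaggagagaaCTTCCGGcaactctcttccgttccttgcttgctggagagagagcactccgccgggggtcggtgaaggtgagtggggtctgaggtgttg
Uqcr10: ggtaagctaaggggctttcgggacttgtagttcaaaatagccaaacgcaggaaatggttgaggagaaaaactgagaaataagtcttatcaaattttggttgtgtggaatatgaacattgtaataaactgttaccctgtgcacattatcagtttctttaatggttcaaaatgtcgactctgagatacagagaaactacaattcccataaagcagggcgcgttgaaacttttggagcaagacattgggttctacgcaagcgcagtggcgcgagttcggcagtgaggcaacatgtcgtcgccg
Atp5j2: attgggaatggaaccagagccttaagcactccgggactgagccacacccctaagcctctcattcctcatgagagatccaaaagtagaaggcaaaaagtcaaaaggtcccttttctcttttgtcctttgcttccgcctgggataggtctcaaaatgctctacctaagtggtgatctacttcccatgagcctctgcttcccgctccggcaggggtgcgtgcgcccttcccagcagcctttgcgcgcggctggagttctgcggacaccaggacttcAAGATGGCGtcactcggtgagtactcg

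Atp5k and Atp5h each held 1 NRF1 and 1 ETS match, Atp5j2 held 1 YY1 match, and the Uqcr10 window held none of these letters. The other members called lower in cord were mixed. Ndufs5 held 1 NRF1 match, Ndufb6 held 1 ETS match, and 1 window of Atp5j held 1 ETS and 1 YY1 match. The windows of Atp5g1 and Ndufa7 held none, and neither did that of Ndufaf2, which is called higher. RefSeq windows were found for 79 of the 97 members, 86 windows in all. The NRF1 letters were in 19 of them (22.1%), against 4.60% of all 32851 windows and 8.83% of the 12826 windows of measured genes. For the ETS letters the share was 24.4% of member windows, against 8.86% of all windows and 14.96% of those of measured genes. For the YY1 letters it was 11.6%, against 1.403% and 2.63%. The median cord log2 ratio was -0.10 over the 18 members with the NRF1 letters and -0.06 over the 61 without. It was -0.12 over the 20 members with the ETS letters and 0.01 over the 59 without. For the YY1 letters it was -0.38 over 9 members and 0.01 over the 70 without. The matches are a description and were not tested against the ratios.

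As a group the members were strongly expressed in every library. Of the 97 members, 91 were measured in DRG and 94 in cord. The median over these was 83.4 FPKM in ipsilateral and 86.1 in contralateral DRG, and 112 in ipsilateral and 111 in contralateral cord, beside medians of 9.64 to 10.6 FPKM over all measured features. Together the members held 2.31% of the summed FPKM in ipsilateral DRG, against 2.47% in contralateral DRG, and 3.23% in ipsilateral cord, against 3.19% in contralateral cord. In DRG the highest was Cox6b1, the intermembrane-space subunit of complex IV, at 580 FPKM ipsilaterally and 564 contralaterally. Atp5b, the catalytic beta subunit of complex V, followed it at 498 and 502 FPKM. In ipsilateral cord the highest was Atp5k, the e subunit of the membrane part of complex V, at 1638 FPKM, against 581 FPKM in contralateral cord, where Atp5b led at 610 FPKM. The order of levels was close between tissues, with a Pearson correlation of 0.966 between contralateral DRG and contralateral cord across 91 members. It was 0.993 between the DRG libraries and 0.950 between the cord libraries. Genes are not independent replicates, and these values only describe the libraries. Levels across the tables are approximate, because each table was normalised separately.

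In DRG the respiratory chain stayed close to the level of the contralateral side. The median log2 ratio over the 91 measured members was -0.05, with a standard deviation across genes of 0.21, beside a median of 0.05 over all 13137 measured features. Ratios ran from -0.52 for Uqcrq to 0.75 for Cox6b2. A single member, Cox6b2, was at least 1.5-fold higher, where 8.56% of all measured features were, and 0 members were at least 1.5-fold lower, where 4.96% were. At 2-fold the counts were 0 and 0, against 3.04% and 0.784% of all features. The authors' deposited table calls 0 members, against 4.65% of measured features called higher, 1.97% called lower and 6.62% called in either direction. The share of members past each of these limits was thus below that of all measured features. The standard error that the authors' deposited table implies for a log2 fold change had a median of 0.28 over these members. The difference was within 1 such standard error for 76 of the 91. It was beyond 1.96 of them for Uqcrq alone, at an adjusted q of 0.286 in the authors' deposited table. Over all measured features with such a standard error, 7594 of 12994 were within 1 and 2135 beyond 1.96. These standard errors leave out variation between animals.

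**Figure D1:**
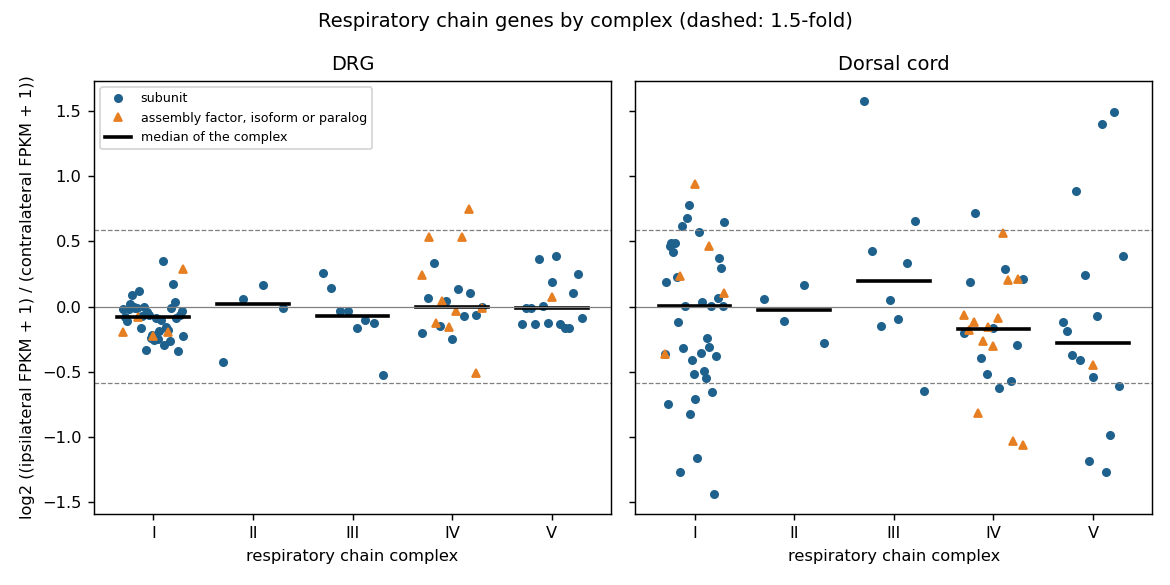
Log2 ratio of each measured member, ipsilateral over contralateral, by complex, in DRG (left) and dorsal cord (right). Points are genes, bars are medians of a complex and dashed lines mark 1.5-fold. DRG members lie between -0.52 and 0.75, cord members between -1.44 and 1.58, on both sides of 0 in every complex.

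More members were below 0 than above it in DRG, by small amounts: 63 of 91 had a log2 ratio below 0, where 43.9% of all measured features did. Complex I, which takes electrons from NADH, held most of them. Its median was -0.08, with 34 of 41 members below 0, and its summed FPKM was 3763 in ipsilateral DRG, against 3978 in contralateral DRG (ratio 0.946). All 7 core subunits, which carry the flavin and iron-sulfur centres, were below 0, with a median of -0.15. Ndufs8, a core iron-sulfur subunit, had 20.2 FPKM in ipsilateral DRG and 25.8 in contralateral DRG (-0.34), and Ndufv2, another, had 99.6 and 102 FPKM (-0.03), with the ratios of the other 5 between them. Among the accessory subunits Ndufb10 was at 132 against 167 FPKM (-0.33) and Ndufc1, the highest ratio of complex I, at 126 against 98.7 FPKM (0.35). Ndufs1, the largest core subunit, had the smallest standard error of any member in the authors' deposited table, at 0.15, for 82.0 FPKM in ipsilateral and 91.3 in contralateral DRG, and the 95% interval of its fold, which rests on that standard error, ran from 0.73 to 1.10.

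Complex II in DRG split by subunit. Sdha, the flavoprotein that oxidises succinate, was at 189 FPKM ipsilaterally, against 254 contralaterally, a log2 ratio of -0.43 and an interval of 0.52 to 1.07 on the fold in the authors' deposited table. Sdhb, the iron-sulfur subunit, was at 118 against 113 FPKM (0.06). The membrane anchors Sdhc and Sdhd were at 47.9 against 42.7 FPKM (0.16) and at 81.5 against 82.1 FPKM (-0.01).

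Complex III had a DRG median of -0.07, with 6 of 8 subunits below 0. Uqcrq, a small ubiquinone-binding subunit, was at 181 FPKM ipsilaterally, against 260.2 contralaterally (-0.52), and the interval of its fold was 0.49 to 0.99 in the authors' deposited table. Uqcr10, a small subunit, was at 47.9 against 39.9 FPKM (0.26). The core protein Uqcrc1 and the Rieske iron-sulfur protein Uqcrfs1 were at 99.3 against 102 FPKM (-0.03) and 42.5 against 45.8 FPKM (-0.11).

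Complexes IV and V were centred on 0 in DRG, with medians of -0.01 in each. Of the common complex IV subunits Cox5b was highest in ratio, at 91.8 FPKM ipsilaterally and 72.5 contralaterally (0.34), and Cox6c lowest, at 188 against 224 FPKM (-0.25). The assembly factors Cox11 and Cox19, which take part in copper delivery, were at 4.27 against 2.64 FPKM (0.54) and 31.6 against 21.5 FPKM (0.53). The authors' deposited table gives them intervals of 0.94 to 2.79 and 0.93 to 2.31 on the fold. In complex V the 3 highest were Atp5g3 (209 against 159 FPKM, 0.39), which encodes the c ring, Atp5e (135 against 105 FPKM, 0.36), the epsilon subunit, and Atp5l (83.4 against 70.1 FPKM, 0.25), the g subunit. The lowest was Atp5j2, the f subunit, at 189.8 against 213 FPKM (-0.17). The summed FPKM of complex V was 2801 in ipsilateral and 2791 in contralateral DRG.

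In the dorsal cord the median was again near 0, but members of the same complex spread widely in both directions. Over the 94 measured members the median log2 ratio was -0.11, with a standard deviation of 0.59, beside a median of 0.02 over all 13351 measured features, and 52 members were below 0 (48.4% of all features). At least 1.5-fold higher were 11 members, where 12.7% of all measured features were, and at least 1.5-fold lower were 16, where 8.32% were. Past 2-fold were 3 higher and 7 lower, against 4.46% and 1.64% of all features. Among the 7 lower, Cox7a1 and Cox7b2 had intervals of the fold that included 1. The rows of Ndufs5 and Atp5j, also among them and called lower, are uncertain, as described below. The authors' deposited table calls 4 members higher and 6 lower, against 4.64% of features called higher, 1.58% called lower and 6.22% called in either direction. The difference was within 1 implied standard error for 35 of 94 members and beyond 1.96 for 25. Over all measured features with such a standard error, 6473 of 13167 were within 1 and 2689 beyond 1.96. The summed FPKM of the members was 14280 in ipsilateral and 13595 in contralateral cord (ratio 1.05). Without Atp5k, the member with the highest level in ipsilateral cord, the sums were 12642 FPKM ipsilaterally and 13014 contralaterally (ratio 0.971), so the side of the larger sum rested on that gene.

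**Figure D2:**
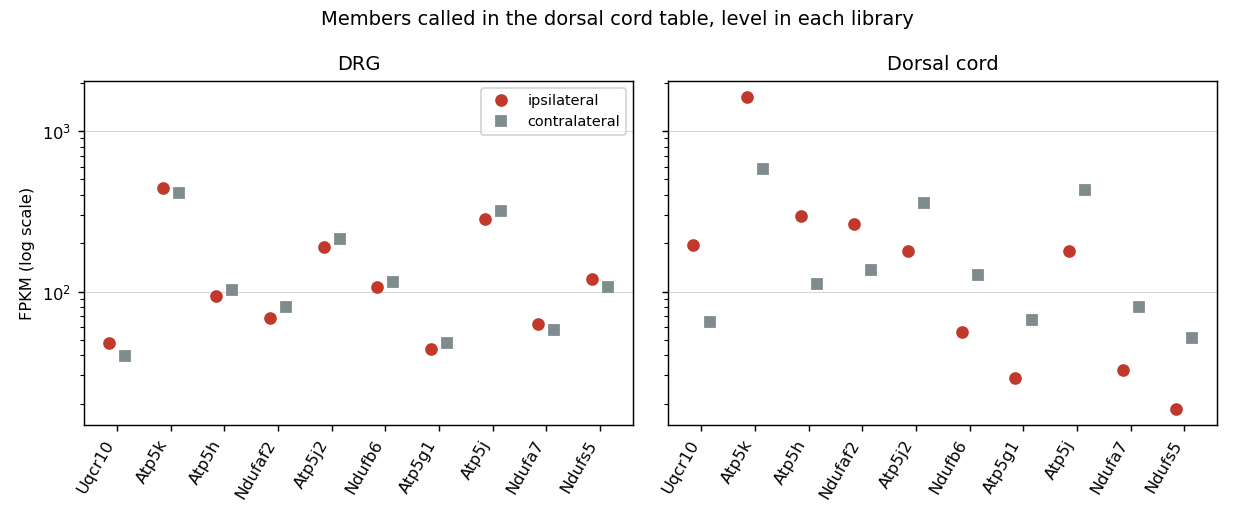
Level in each library (FPKM, log scale) of the 10 members called in the authors' table for dorsal cord, in DRG (left) and cord (right), with ipsilateral as circles and contralateral as squares. In cord Uqcr10, Atp5k, Atp5h and Ndufaf2 are higher ipsilaterally and the other 6 lower, while in DRG each pair of points lies close together.

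Complex I in cord had a median of 0.01, with 22 of 41 members above 0 and 19 below. The 7 core subunits had a median of 0.01 and 0 of them passed 1.5-fold. Ndufs8 was at 34.3 FPKM ipsilaterally and 26.3 contralaterally (0.37). The wide ratios were in the accessory subunits, which surround the core, and in an assembly factor. Transcript length also differed: the shortest core transcript, that of Ndufs7, was 758 nt, and many accessory ones were shorter. The part of length in this contrast was not tested. Ndufaf2, an assembly factor that binds complex I late in its building, was at 264 FPKM ipsilaterally and 137 contralaterally (0.94), with an interval of 1.36 to 2.73 on the fold and a q of 0.009 in the authors' deposited table. Ndufa7, an accessory subunit of the matrix arm, was at 32.6 FPKM ipsilaterally and 80.1 contralaterally (-1.27), with an interval of 0.24 to 0.70 and a q of 0.029 in the authors' deposited table. Ndufb6, an accessory subunit of the membrane arm, stood at 56.0 against 126 FPKM (-1.16), its interval being 0.28 to 0.70 and its q 0.014 in the authors' deposited table. Past 1.5-fold but not called were Ndufb11 (69.5 against 40.0 FPKM, 0.78), Ndufb10 (395 against 247 FPKM, 0.68), Ndufv3 (303 against 193 FPKM, 0.65) and Ndufa8 (77.1 against 50.01 FPKM, 0.61) on the higher side. On the lower side these were Ndufb2 (84.2 against 149.9 FPKM, -0.82), Ndufa11 (2.65 against 5.12 FPKM, -0.75), Ndufb5 (85.4 against 140.4 FPKM, -0.71) and Ndufs4 (33.7 against 53.7 FPKM, -0.66). Subunits of the same membrane arm, all named Ndufb, thus lay on both sides of 0. The summed FPKM of complex I was 5222 ipsilaterally and 4988 contralaterally (ratio 1.05).

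Ndufs5, an accessory subunit, had the lowest ratio of all members in cord, at 18.4 FPKM ipsilaterally and 51.6 contralaterally (-1.44, q of 0.042 in the authors' deposited table), but its row is uncertain. Its locus (mm9, chromosome 4, 123389952 to 123395429) also carries the row BC002163, an annotated pseudogene copy of it, listed at 370.5 FPKM ipsilaterally and 225 contralaterally (0.71). The authors' deposited table calls that row higher, at a q of 0.019. Summed, the rows stood at 389 FPKM ipsilaterally and 277 contralaterally (0.49), the opposite direction. In DRG the Ndufs5 row was at 119.9 against 106 FPKM (0.17) and the sum at 305 against 312 FPKM (-0.03).

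Complex II, the smallest group, showed little spread in cord. Sdha was at 364 FPKM ipsilaterally and 349.5 contralaterally (0.06), Sdhb at 113 against 122 (-0.11), Sdhc at 65.7 against 58.6 (0.16) and Sdhd at 91.2 against 111 (-0.28). None of the 4 passed 1.5-fold, and their log2 ratios had a standard deviation of 0.19.

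Complex III had a cord median of 0.19 with 5 of 8 subunits above 0, and the highest ratio of any member. Uqcr10 was at 194 FPKM ipsilaterally, against 64.4 contralaterally (1.58), a fold of 3.02 with an interval of 1.92 to 4.73 and a q of 0.0002 in the authors' deposited table. It lies on mm9 chromosome 11 from 4601970 to 4604347. Uqcrh, the hinge protein that helps dock cytochrome c1, was at 391.7 against 247.8 FPKM (0.66), and Uqcr11 at 124 against 92.0 FPKM (0.43), and neither is called. Uqcrq was lower, at 204 against 320.1 FPKM (-0.65), as it was in DRG. The core proteins Uqcrc1 and Uqcrc2 were at 139 against 135 FPKM (0.05) and 83.7 against 89.6 FPKM (-0.10).

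Complex IV had a cord median of -0.17, with 17 of 24 measured members below 0 and 0 called. Its summed FPKM was 2709 ipsilaterally and 3006 contralaterally (ratio 0.901). Cox6b1, highly expressed, was at 370.1 FPKM ipsilaterally and 529.6 contralaterally (-0.52), and Cox4i1, the regulatory subunit, at 429 against 494 FPKM (-0.20). Cox7a2 was at 73.5 against 114 FPKM (-0.62). Cox5b stood out on the other side, at 250.3 against 151 FPKM (0.72). The interval of its fold was 1.16 to 2.36 and its q 0.074 in the authors' deposited table. Of the 8 assembly factors 7 were below 0, with a median of -0.17, the lowest being Cox16 at 4.45 against 8.60 FPKM (-0.82).

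Complex V had wide ratios in both directions within the same enzyme. Its median was -0.28 and its standard deviation 0.82, the widest of the 5 complexes, with 3 members past 1.5-fold on the higher side and 4 on the lower side. Atp5k was at 1638 FPKM ipsilaterally and 581 contralaterally (1.49), with an interval of 1.98 to 4.01 on the fold and a q of 3.0e-06 in the authors' deposited table. Atp5h, the d subunit of the peripheral stalk, stood at 294 FPKM ipsilaterally, against 111 contralaterally (1.396). Its interval was 1.84 to 3.82 and its q 3.9e-05 in the authors' deposited table. Atp5d, the delta subunit, stood at 54.3 against 28.9 FPKM (0.89). Its interval was 1.22 to 2.90 and its q 0.0615 in the authors' deposited table, so it is not called. On the lower side were Atp5g1, which encodes the c ring, at 28.8 FPKM ipsilaterally and 66.6 contralaterally (-1.18), and the f subunit Atp5j2 at 179 against 355.5 FPKM (-0.98). Their q values in the authors' deposited table were 0.002 and 0.010. Atp5l, the g subunit, was at 59.9 against 91.8 FPKM (-0.61). The catalytic head subunits Atp5a1 and Atp5b were at 427 against 463 FPKM (-0.12) and 535 against 610 FPKM (-0.19).

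Atp5j, the coupling factor of the peripheral stalk, was at 179 FPKM ipsilaterally and 431 contralaterally (-1.27, q of 0.0001 in the authors' deposited table), and is also uncertain. Its locus carries a second row, LOC654426, listed at 239.9 FPKM ipsilaterally and at 0 contralaterally, with too few data for a test per the authors' status. The sum of both rows was 418 FPKM ipsilaterally and 431 contralaterally (-0.04). In DRG the second row was listed at 0 in both libraries, and Atp5j was at 282 against 316 FPKM (-0.17). The row of Cox7c, a complex IV subunit at 52.5 against 78.3 FPKM in cord (-0.57), and that of its pseudogene copy Gm10012, at 39.8 against 63.5 FPKM (-0.66), lay on the same side. In all 22 of the 97 members, and 4 of the 10 called ones, have at least 1 pseudogene copy of 95% identity or more over at least 150 bases in GENCODE M21. The 4 called ones are Ndufs5, Atp5k, Atp5g1 and Atp5h, the last with 3 copies, and Atp5j has none. How the authors' counting divided reads between such copies, or between rows that share a locus, is unknown here.

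The isoform sets were described whole. Outside the c ring genes and Cox7a2l, a common form of each set was expressed above 50 FPKM and the other forms lay far below it. Cox7a2l, a paralog of Cox7a2 known for joining complexes III and IV into supercomplexes, lay above Cox7a2 in all 4 libraries. It had 118 FPKM in ipsilateral and 119 in contralateral DRG (-0.01), and 148 in ipsilateral and 127 in contralateral cord (0.21). Cox7a2 had 77.2 FPKM in ipsilateral and 70.2 in contralateral DRG, and 73.5 in ipsilateral and 114 in contralateral cord. Cox4i1 had 377 FPKM in ipsilateral DRG and 434 in contralateral DRG, while the hypoxia-responsive form Cox4i2 was at 0.65 and 0.15 FPKM. In cord Cox4i2 was at 1.25 FPKM ipsilaterally and 1.39 contralaterally. Cox6a2, the heart and muscle form, stayed at or below 1.11 FPKM in all libraries, against 112 to 169 FPKM for Cox6a1. Cox6b2, a testis form, had 2.53 FPKM in ipsilateral DRG and 1.10 in contralateral DRG (0.75), and the interval of its fold in the authors' deposited table, 0.78 to 6.75, included 1. Cox7b2 was at 0.97 against 3.11 FPKM in cord (-1.06), with an interval of 0.08 to 1.29 in the authors' deposited table. Cox8c was listed at 0 in all libraries, and Cox8b at 0 except in ipsilateral cord (0.68 FPKM). Ndufa4l2 stayed below 1 FPKM, against 211 to 251 FPKM for its paralog Ndufa4.

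Cox7a1, the muscle form of a complex IV subunit, was the most abundant of these minor forms. It stood at 16.2 FPKM in ipsilateral DRG and 23.4 in contralateral DRG (-0.51), and at 8.41 in ipsilateral and 18.2 in contralateral cord (-1.03). Its q in the cord was 0.388 in the authors' deposited table, with an interval of 0.17 to 1.24 on the fold. Of 13 listed markers of skeletal muscle and fat, 3 were measured in DRG and 3 in cord. Ckm stayed below 1 FPKM, at 0.08 against 0.19 FPKM in DRG and at 0 against 0.30 FPKM in cord. Acta1 was at 32.2 against 25.9 FPKM in DRG and at 12.5 against 9.19 FPKM in cord. The measured markers ran from -0.74 (Cidea) to 1.11 (Fabp4) in DRG, and from -0.21 (Cidea) to 0.40 (Acta1) in cord. The c ring is encoded by 3 genes for the same mature protein. In DRG Atp5g1, Atp5g2 and Atp5g3 were at 43.8 against 47.8, 56.2 against 49.2 and 209 against 159 FPKM. In cord they were at 28.8 against 66.6, 54.9 against 80.1 and 216 against 228 FPKM, lower ipsilaterally for all 3 and by most for Atp5g1.

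**Figure D3:**
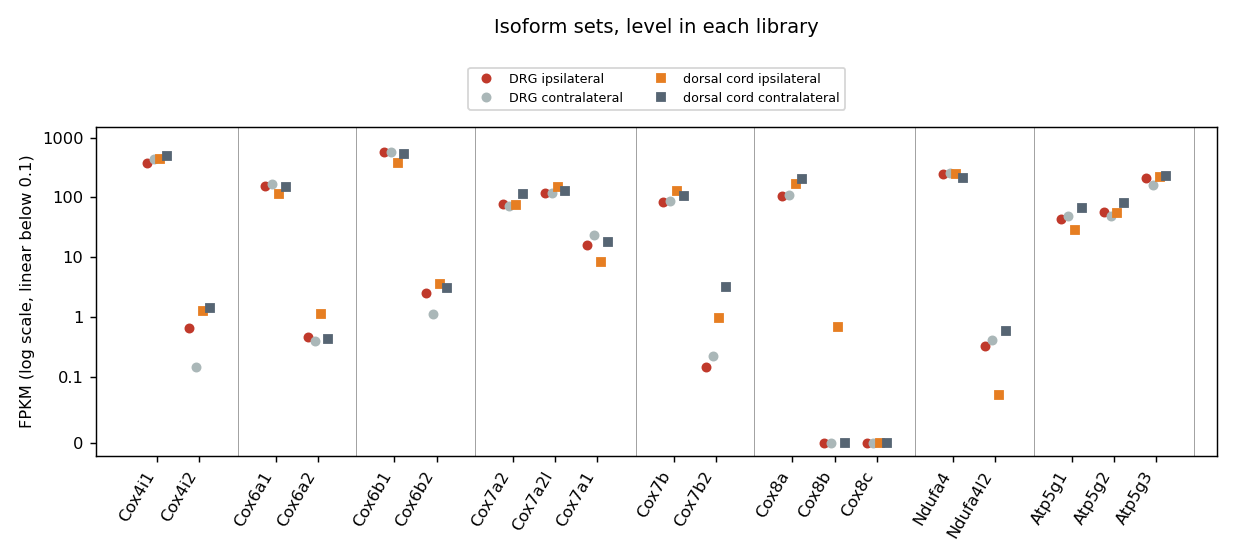
Level of isoforms and paralogs in each of the 4 libraries, in FPKM on a log scale that is linear below 0.1, with DRG as circles and cord as squares. The common forms Cox4i1, Cox6a1, Cox6b1, Cox7a2, Cox7b, Cox8a and Ndufa4 lie above 50 FPKM, as does Cox7a2l, and the other alternative forms at 23.4 FPKM or below, while the 3 c ring genes lie between 28.8 and 228 FPKM.

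Across the members, the ratios of the tissues did not run together. Of the 91 members measured in both, 44 had the same sign in DRG and cord and 0 passed 1.5-fold in both. Only Cox6b2 passed 1.5-fold in DRG, so hardly any member could pass in both. The larger absolute log2 ratio was in cord for 76 of the 91. Over all measured features the standard deviation of the log2 ratios was also larger in cord, at 0.67, against 0.55 in DRG. Across these 91 genes the Pearson correlation of the ratios was 0.04 and Spearman's rho was -0.002. No such counts or correlations over all features are given here, so nothing shows them to be particular to the members. The 10 members called in cord were close to even in DRG, where their log2 ratios lay between -0.23 (Ndufaf2) and 0.26 (Uqcr10).

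Members have short transcripts, and in cord the ratios were wider among the shortest. The median length in GENCODE M21 was 742 nt, against 2260 nt over all features, and 62 of the 97 members had transcripts under 1000 nt, as had all 10 members called in cord. Among members with a mean of at least 20 FPKM in cord, 37.1% of the 35 with transcripts of 300 to under 700 nt passed 1.5-fold in either direction, as did 41.2% of the 17 with 700 to under 1000 nt and 12.5% of the 24 with 1000 nt or more. Over all features at that level the shares were 39.4% of 203, 32.8% of 268 and 13.0% of 3672. The members' shares in cord were thus near those of all features in the shortest and longest classes, and higher in the middle class of 17 members. From the shortest to the longest class, the authors' deposited table calls 22.9%, 11.8% and 0% of these members in cord. Of all features at that level it calls 18.7%, 11.6% and 6.62%. All features include the members, and the classes were chosen after seeing the data. In DRG the members' shares past 1.5-fold were 0% in the 3 classes, with 35, 17 and 25 genes. Those of all features were 10.6%, 9.09% and 9.77%. The standard deviation of the members' log2 ratios in cord was 0.76, 0.63 and 0.33 from the shortest to the longest class, and in DRG 0.17, 0.21 and 0.19.

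**Figure D4:**
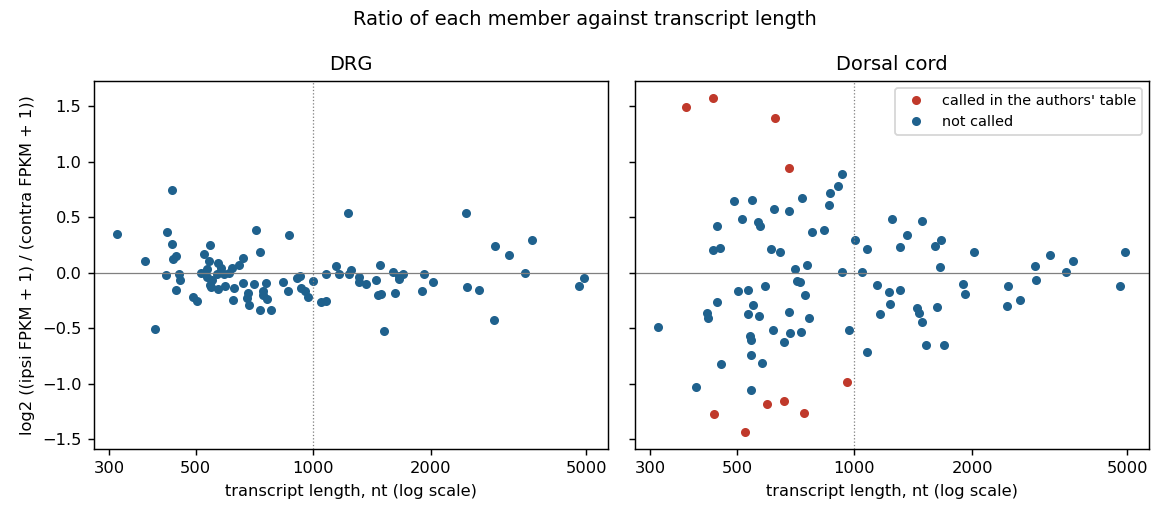
Log2 ratio of each measured member against transcript length (nt, log scale), in DRG (left) and cord (right), with members called in the authors' table in red and a dotted line at 1000 nt. In cord the called members all lie left of the line, and in DRG no member is called at any length.

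**Figure D5:**
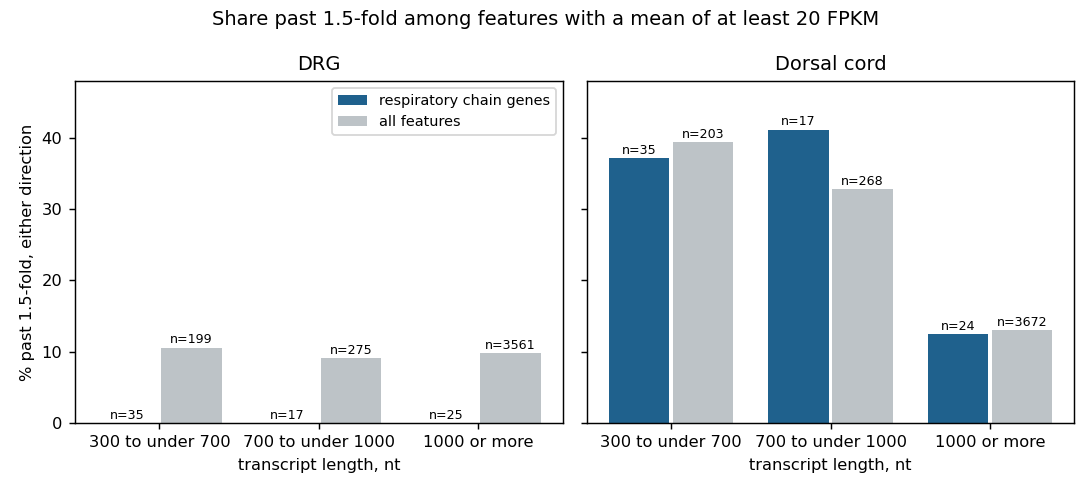
Percent of features past 1.5-fold in either direction, by class of transcript length, for members (blue) and all features (grey) with a mean of at least 20 FPKM. In cord the members are at 37.1%, 41.2% and 12.5% and all features at 39.4%, 32.8% and 13.0%, and in DRG the members are at 0% in each class.

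The number of reads in each library was not given, but the tables hold its ratio within a tissue. By the standard error of features with a single read in each library, 1 read was worth 0.637 times as much FPKM in ipsilateral as in contralateral DRG, and 1.35 times as much in ipsilateral as in contralateral cord. Base composition also moved with the cord ratios of all features. Over 4 equal classes of transcript GC content, from low to high, the median cord log2 ratio of features with at least 20 FPKM was -0.19, -0.05, 0.07 and 0.22, and that of the members -0.12, -0.08, -0.12 and 0.04. The part of depth, length and base composition in the members' ratios was not tested.

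Other genes of mitochondrial energy supply were read beside the members. Of chain genes that the name rule leaves out, 25 were measured in DRG (median -0.09) and 24 in cord (median -0.16). In cord Cyc1, the cytochrome c1 of complex III, was at 346 FPKM ipsilaterally and 142 contralaterally (1.27), and Usmg5, a small complex V subunit, at 174 against 441 FPKM (-1.33), and the authors' deposited table calls both. In DRG they were not called, with Cyc1 at 80.5 against 105 FPKM (-0.37). The tricarboxylic acid cycle, which feeds complexes I and II, had a median of -0.13 in DRG, with 15 of 21 genes below 0, and a median of -0.07 in cord. The authors' deposited table calls 0 of its genes in either tissue. The carriers and import genes had medians of -0.08 in DRG and -0.01 in cord, where the authors' deposited table calls the prohibitin gene Phb (31.0 against 14.0 FPKM) and the import chaperone gene Timm9 (31.6 against 15.2 FPKM) higher.

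Glycolysis, which makes ATP without oxygen, had medians of -0.01 in DRG and 0.16 in cord. In DRG the glucose transporter gene Slc2a1 stood at 42.7 FPKM, against 18.9 on the contralateral side (1.13), and the aldolase gene Aldoc at 39.9 against 69.6 FPKM (-0.79), called higher and lower in the authors' deposited table. In cord the authors' deposited table calls Hk2, a hexokinase gene, higher, at 3.28 against 1.14 FPKM (0.999). Of 17 measured regulators of respiratory genes 0 are called in DRG (median 0.08). In cord the authors' deposited table calls Polrmt, the mitochondrial RNA polymerase gene, at 8.77 against 3.36 FPKM (1.16), and Ppard, a nuclear receptor gene, at 10.2 against 4.40 FPKM (1.05), higher. Nrf1 itself was at 7.83 against 5.04 FPKM in cord (0.55) and Gabpa, a GABP gene, at 5.56 against 6.43 FPKM (-0.18), and neither is called. Over the 17 regulators measured in cord the median was -0.08, with 7 above 0 and 10 below. Uncoupling and oxidant defence genes had medians of -0.05 and -0.02, with the carrier gene Slc25a14 at 24.5 against 45.8 FPKM in cord, called lower in the authors' deposited table. Genes of mitochondrial dynamics and turnover had medians of -0.11 in DRG and 0.04 in cord, where the mitophagy receptor gene Bnip3 (22.6 against 48.5 FPKM), the transport adaptor gene Rhot1 (14.3 against 22.9 FPKM) and the fission gene Dnm1l (65.0 against 86.7 FPKM) are called lower in the authors' deposited table.

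Cytosolic ribosomal protein genes, another large set of short and abundant transcripts, gave a comparison for the spread. Over 87 measured rows, which include pseudogenes and S6 kinase genes under the same prefix, the DRG median was 0.18 and the standard deviation 0.49. Over 88 rows in cord they were 0.20 and 1.03, with 24 rows past 1.5-fold on the higher side and 6 on the lower side. The cord standard deviation was larger than that of the respiratory chain genes, but the rows include extremes such as Rps27 at 6.33 and Rpl34-ps1 at -4.37. The quartiles in cord were closer, at -0.41 and 0.28 for the respiratory chain genes and -0.16 and 0.64 for the ribosomal rows. The cord medians lay on opposite sides of 0. The difference between the sets was not tested.

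Levels of cell type markers also differed between sides. In bulk tissue fewer cells of a type and less RNA per cell cannot be told apart. All 20 sensory neuron markers were measured in DRG. In cord all 11 listed general neuron markers were measured, with a median of -0.18 and 3253 FPKM in sum ipsilaterally, against 3370 contralaterally. All 8 astrocyte markers were measured there too, with a median of -0.07 and 2452 FPKM in sum ipsilaterally, against 2432 contralaterally. Of the sensory neuron markers 18 had log2 ratios below 0 in DRG and 11 were at least 1.5-fold lower, with a median of -0.64 and a summed level of 7193 FPKM ipsilaterally, against 10504 contralaterally. The general neuron markers did not lie to that side in DRG: of 8 measured, 4 were above 0 and 4 below, with a median of 0.02 and a summed level of 4718 FPKM ipsilaterally, against 3970 contralaterally. All 15 myeloid markers were at least 1.5-fold higher in DRG, with a summed level of 244 against 86.3 FPKM, and 14 of 15 were in cord, with 892 against 184 FPKM. Of 14 Schwann and satellite glia markers 0 passed 1.5-fold in DRG (median 0.10). The 12 endothelial and fibroblast markers had a DRG median of 0.62, and 7 of them were at least 1.5-fold higher. The part of these shifts in the members' ratios was not tested.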

How the data were processed

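RNA was sequenced from 4 libraries, 1 per group, and the authors' sample labels read mRNA. The submitters' processing notes name TopHat 1.4.0, Cuffdiff 1.3.0 and build mm9, and the annotation and strand setting were not stated in them. Each feature has a level in FPKM, a log2 fold change, a test statistic, a p-value and a q-value in the authors' deposited tables, per the file headers. The p-values and q-values in the authors' tables compare 1 library with 1 library.

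Log2 ratios were computed from FPKM with a pseudocount of 1, within a table, with pandas 2.3.3. The authors' fold change for cord runs contralateral over ipsilateral and was turned round. The standard error is the authors' log2 fold change over their test statistic, and the 95% intervals rest on it. No p-value was computed. Lengths, GC content and pseudogene copies (blastn 2.17.0) are from GENCODE M21, matched by symbol for 98.3% of features. Ratio calculations were tested on simulated data. The members, lists and tests were chosen with earlier results of these data known. Named are, per tissue and complex, the 3 highest and 3 lowest ratios, called members, members past 1.5-fold, the 10 most abundant and the isoform sets, and up to 4 genes of each other list, with further genes chosen after their values were seen. The number of per-sample columns not used was 0.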

Additional observations from a re-analysis of the deposited data

Results flagged for a closer look

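For 4 members called in the authors' deposited table for dorsal cord the DRG ratio had the opposite sign, with 1 library on each side of each tissue. Atp5h had a log2 ratio of 1.396 in cord and -0.14 in DRG. Ndufaf2 had 0.94 in cord and -0.23 in DRG. Ndufa7 had -1.27 in cord and 0.12 in DRG. Ndufs5 had -1.44 in cord and 0.17 in DRG, but its row is uncertain. Summed with the row BC002163 at its locus, the log2 ratio was 0.49 in cord and -0.03 in DRG. The difference between the tissues was not tested for any of the 4, and the DRG values lay within 1 implied standard error of 0.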

How the results depend on the processing

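Over 15 alternatives the median log2 ratio of the members stayed between -0.12 and -0.04 in DRG and between -0.17 and -0.09 in cord. In DRG the count at least 1.5-fold higher was 2 at a pseudocount of 0.1 FPKM, and 0 at a pseudocount of 3 FPKM, with a filter of 5 FPKM, for subunits alone and for transcripts of 1000 nt or more. The count at least 1.5-fold lower in DRG was 1 under median scaling. In cord, transcripts of 1000 nt or more left 0 members higher and 3 lower and a complex III median of -0.024, which was 0.34 without members that overlap another feature. The complex I median in cord was -0.14 after subtraction of the median of each GC class. With the rows at the loci of Ndufs5 and Atp5j summed, their cord log2 ratios were 0.49 and -0.04, and the complex V median was -0.15. The restrictions on length, overlap and copies, the GC classes and the summed rows were chosen after seeing the data. No paired analysis was possible because each group has 1 library. Read numbers are unknown, so no counting interval could be given.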
